A study of Bos taurus with 2 samples.

Results

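The genes described here are 9 genes of smooth muscle contraction and pericytes, some of them narrow marks of these cells and some with wide expression. They were TAGLN, TAGLN2, CNN1, CNN2, CNN3, MYH11, MCAM, RGS5 and SRF, found by symbol among the 21867 genes of the deposited feature list, and each symbol belonged to 1 gene. Their counts came from 2 single-cell RNA sequencing libraries, called replicates 1 and 2, of the same satellite cells, taken from the longissimus muscle of 1 Holstein bull calf aged 2 weeks and grown for 1 week in DMEM with 10% FBS. No treatment was compared, and the comparison is between the 15 clusters into which the study divided the 19096 cells.

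Smooth muscle cells contract through actin and a myosin of their own, MYH11, with small proteins that sit on the actin filament. Calponins (CNN1, CNN2 and CNN3) and transgelins (TAGLN and TAGLN2) are the best known of these, and 1 member of each family, CNN1 and TAGLN, is a classic smooth muscle mark while the others are made by many cell types. The transcription factor SRF, with its partner MYOCD in smooth muscle or with MRTF proteins elsewhere, drives genes of this kind, and it also drives actin genes of skeletal muscle. Pericytes, which wrap small blood vessels, are usually recognized by RGS5, MCAM, PDGFRB, CSPG4 and NOTCH3.

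Replicate 1 held 9939 cells and 145631299 unique molecular identifiers (UMIs, each standing for 1 captured RNA molecule), and replicate 2 held 9157 cells and 137818568 UMIs, with 27 cell barcodes found in both. Cells of clusters 7, 13, 14 and 15 were shallow, with medians of 1389, 1631, 2513.5 and 647 UMIs, against medians of 5398.5 to 23011 in the 11 deeper clusters. A level below is the UMIs of a gene per 10000 UMIs of a cluster in a library, given as mean ± SD over the 2 libraries. The UMIs come from the 3′ end of the RNA, so levels were not divided by gene length. Both libraries came from the same cells, so the SD and the p-values cover library preparation and sequencing and not the spread between animals.

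The 9 genes differed widely in abundance. TAGLN2 had 230973 UMIs and was found in 87.4% of the cells (95% exact binomial interval 86.9% to 87.8%, counting error only), and CNN3 had 63538 UMIs in 83.5% of the cells. CNN2, CNN1, SRF and TAGLN were intermediate, with 16405, 8484, 7736 and 5642 UMIs. At the other end, MYH11 had 192 UMIs in 180 cells (0.943%), MCAM had 102 UMIs in 0.529% of the cells and RGS5 had 8 UMIs in 5 cells (0.0262%). MYH11, MCAM and RGS5 were therefore nearly silent, and TAGLN2 and CNN3 carried most of the counts. CNN1 and TAGLN, the classic smooth muscle marks of their families, were found in 20.9% and 22.2% of the cells.

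The label of the gene group was checked against wider lists of cell type marks. MYOCD, the smooth muscle partner of SRF, had 2 UMIs in all cells. ACTA2, smooth muscle alpha actin, had 190636 UMIs in 88.9% of the cells, with its highest level in cluster 8 (9.12 ± 0.284) and its lowest in cluster 10 (3.22). All 17 listed pericyte genes had UMIs, but 9 of them, RGS5, ABCC9, KCNJ8, HIGD1B, COX4I2, ENPEP, GJA4, RGS4 and ANGPT1, had fewer than 100, and PDGFRB had 188. Within the list, NOTCH3, HEYL, CSPG4 and CD248 had 10356, 8845, 6425 and 5834 UMIs, in 32.1%, 27.8%, 20.3% and 11.7% of the cells. The summed level of that list ran from 0.254 in cluster 12 to 6.40 in cluster 7. CSPG4, NOTCH3 and CD248 made up most of that sum, and ANPEP and MCAM (3 UMIs) were also highest in cluster 7. RGS5, KCNJ8, HIGD1B, COX4I2 and ANGPT1 were at 0 there. Up to 3 counts would allow a level of 0.0142 in that shallow cluster. These genes had at most 0.0029 over all cells, so their zeros do not tell cluster 7 from the others. The sum of 8 fibro-adipogenic genes was highest there too (339), mostly from COL1A1 (147) and COL3A1 (176). PDGFRA and DPT were highest in cluster 9, DCN and LUM in cluster 8 and PDPN in cluster 3. Among 12 endothelial genes 9 had fewer than 100 UMIs and TIE1 and PLVAP had 0. MYOCD and RGS5, which define these cell types most narrowly, were near 0, while ACTA2, NOTCH3, HEYL and CSPG4 were found in many cells. The listed marks were thus divided, so the members are described by cluster number. No cluster is given the name of a smooth muscle cell or pericyte.

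**Figure D1:**
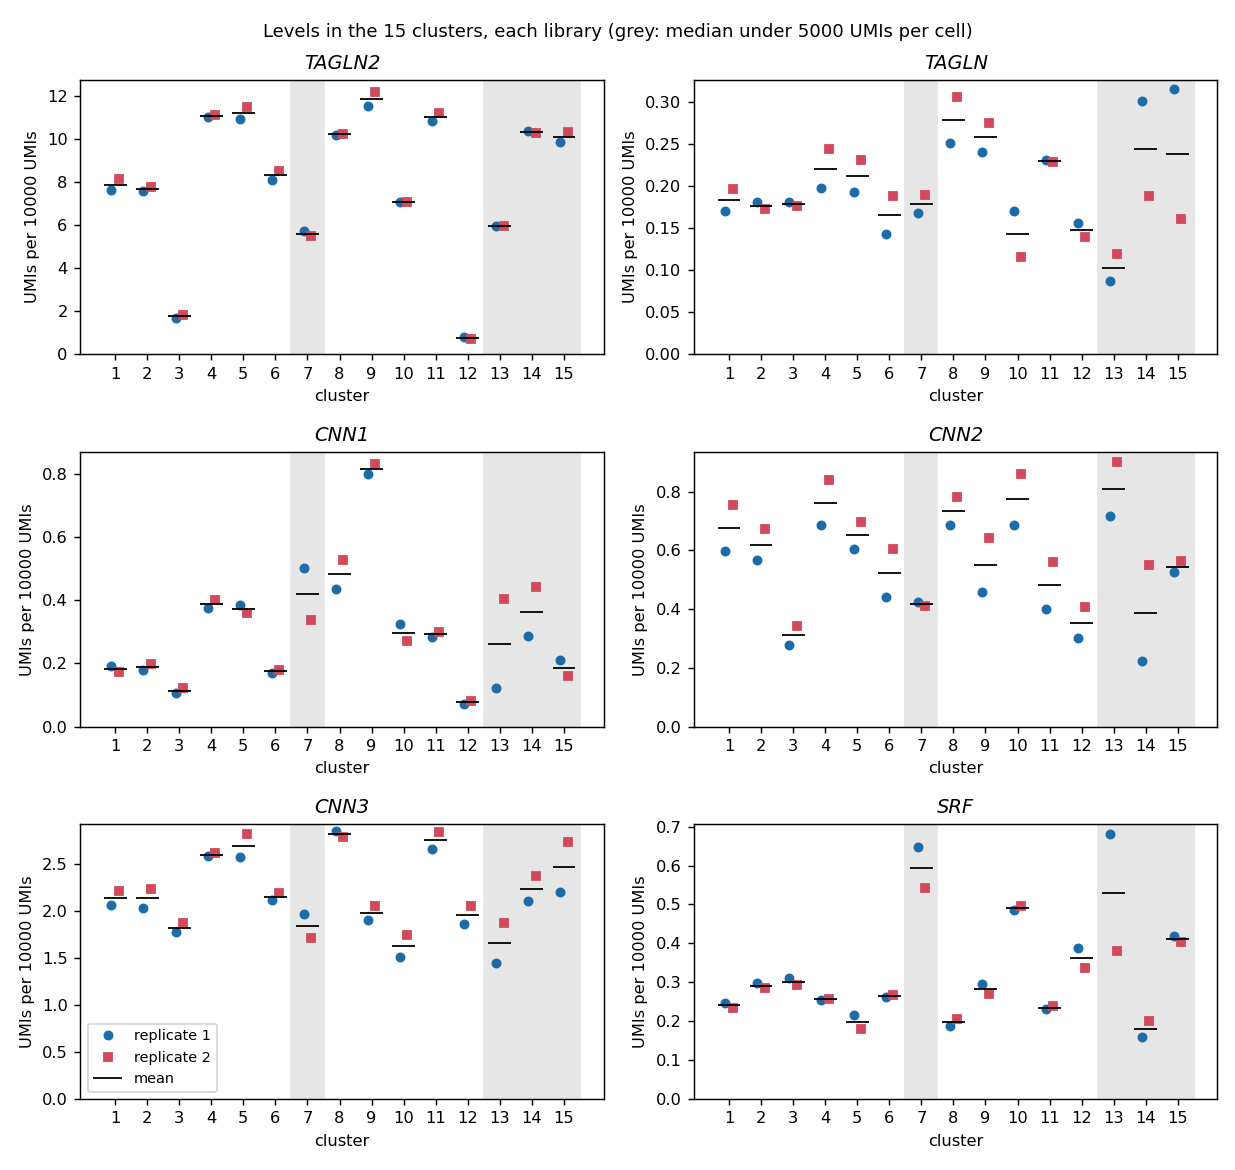
Level of the 6 abundant genes (UMIs per 10000 UMIs, vertical axis from 0) in the 15 clusters (horizontal axis), with circles for replicate 1, squares for replicate 2 and a line at their mean; grey marks clusters with a median under 5000 UMIs per cell. TAGLN2 was near 0.749 in cluster 12 and 1.76 in cluster 3 and between 5.60 and 11.9 elsewhere, CNN1 stood out in cluster 9, and CNN2 was higher in replicate 2 in 14 of 15 clusters.

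TAGLN2, a widely expressed transgelin that binds and stabilizes actin filaments, varied most among the abundant genes. Its level was 11.5 in replicate 1 and 12.2 in replicate 2 in cluster 9, the highest, and 0.795 and 0.703 in cluster 12, the lowest, a ratio of means of 15.8. Clusters 5, 4 and 11 followed cluster 9 with 11.2 ± 0.412, 11.1 ± 0.0607 and 11.01 ± 0.271, and these neighbors in the order overlapped between libraries. Clusters 14, 8 and 15 stood at 10.3, 10.2 and 10.1, and clusters 6, 1, 2 and 10 at 8.31, 7.88, 7.67 and 7.06. Below these came clusters 13 and 7 with 5.97 and 5.60, and then a wide step to cluster 3 with 1.76 ± 0.114. Clusters 3 and 12 were the clusters with the most MYOG, the factor that switches on muscle differentiation, at 6.68 ± 0.107 and 18.6 ± 0.779.

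To ask where a member stood out, edgeR's quasi-likelihood test set the 2 library sums of a cluster against those of the cells outside it, with Benjamini-Hochberg adjustment over all genes tested and a call at an adjusted p under 0.05. TAGLN2 was called higher in 6 clusters (4, 5, 8, 9, 11 and 14) and lower in 5 (3, 7, 10, 12 and 13). Its log2 fold change was -3.32 for cluster 12 (SE 0.074, edgeR adjusted p = 1.06e-06), and in cluster 3 it was -2.23 (SE 0.049, edgeR adjusted p = 7.92e-06). The call in cluster 10 (-0.33) rested on how the other clusters were combined, since the value was -0.02 (edgeR adjusted p = 0.826) when they were weighted equally. Over the 8 members tested in each cluster, 25 of 120 pairs of gene and cluster were called higher and 25 lower, where 14.9% and 17.1% of all 196010 pairs were. A fit with the library as a block, which removes the shared difference between libraries, called 34 higher and 34 lower. The share of all genes called in the blocked fit was not counted, so these numbers cannot be set against 14.9% and 17.1%. RGS5 was tested in no cluster, because it did not pass the filter on low counts. The clusters were made from these same counts, so the p-values are not independent of the genes that shaped a cluster.

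The clusters where TAGLN2 was called higher also had little MYOD1, the myoblast determination factor. From cluster 9 through clusters 8, 11, 5, 14 and 4 it stood at 0.571, 0.892, 1.35, 1.92, 2.70 and 2.71, and at 3.96 to 6.75 in clusters 1, 2, 3, 6, 10, 12 and 13. Clusters 7 and 15, with 2.46 and 2.98, had little MYOD1 as well, but TAGLN2 was not called higher in them. As a description over the 15 clusters, which share libraries and depth, log2 levels of TAGLN2 had a Pearson correlation of -0.782 with MYOG and -0.420 with MYOD1, and over the 11 deeper clusters these were -0.916 and -0.443.

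TAGLN2 was also found in fewer cells where its level was low. With each cell thinned to 2000 UMIs, clusters 9, 8, 1, 3 and 12 had it in 89.5%, 85.7%, 73.0%, 23.5% and 9.89% of their cells. Without thinning it was found in 100% of cells in clusters 8 and 9 and in 51.2% of cluster 12, at median depths of 13158, 23011 and 19113 UMIs. No cluster is known to lack TAGLN2, so its share in cluster 12 is also the most that RNA free in the suspension could give in that cluster at this depth. What free RNA gave in the other clusters, whose cells differed in depth before thinning, was not tested. Without cells that Scrublet scored as doublets, 3.19% of cluster 12, the level there was 0.535 in place of 0.749.

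The share of cells with TAGLN2 was also set beside MYOG cell by cell. At 2000 UMIs per cell, TAGLN2 was found in 33.0% of 2744 cells with MYOG and 76.5% of 14454 cells without it. Within cluster 3 these shares were 16.1% and 24.0% in replicates 1 and 2 with MYOG, against 24.8% and 30.6% without it. Within cluster 2 they were 42.1% and 41.9% with MYOG, against 71.5% and 76.2% without it, and in cluster 10 they were 38.4% and 53.3% against 72.0% and 72.4%. In these 3 clusters both libraries of cells with MYOG lay below both of cells without it, and so they did in clusters 8 and 12, on 28 cells with MYOG and 58 cells without it. In cluster 1 the shares were 72.4% and 54.0% against 72.6% and 76.0%, almost level in replicate 1. In clusters 4, 6 and 9 the libraries overlapped, and in clusters 5 and 11 the cells with MYOG, 40 and 19 in number, had TAGLN2 at least as often. MYOG was chosen for this count after its levels had been seen.

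The spread of TAGLN2 among cells also differed between clusters. At 5000 UMIs per cell, where random counting alone gives a variance equal to the mean, the variance over the mean was 2.13, 2.42 and 2.68 in clusters 1, 2 and 3. It was 1.23 to 1.38 in clusters 4, 5, 8, 9 and 11. It was 1.88, 1.66 and 1.56 in clusters 6, 10 and 12. This measure can grow with the mean, which was 4.16 and 3.91 UMIs in clusters 1 and 2 and 0.281 in cluster 12. In clusters 4, 5, 8, 9 and 11, which had the lowest ratios, the mean was higher, at 5.15 to 6.03 UMIs. By the share of TAGLN2 UMIs held by the top cells, 7 of 613 in cluster 12 and 21 of 2031 in cluster 3, these clusters came first with 14.5% and 10.3%, against 2.49% to 3.68% in the 9 other deeper clusters. This share rises as the mean falls, and the means of clusters 12 and 3 were the lowest (0.281 and 0.877). Whether the means account for that order was not tested. At similar means the shares of other members were not all lower than those of TAGLN2. CNN1 in cluster 8 (0.237) had 17.8%, with a variance over the mean of 1.79, while CNN2 and CNN3 had lower shares. CNN2 in cluster 9 (0.288) had 9.97% and CNN3 in cluster 3 (0.926) had 4.94%, with variances over the mean of 1.10 and 1.09.

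TAGLN, the smooth muscle transgelin also known as SM22 alpha, was far less abundant and far flatter. Its level was 0.251 and 0.305 in replicates 1 and 2 of cluster 8, the highest, and 0.240 and 0.275 in cluster 9. The lowest deeper cluster was cluster 10 with 0.170 and 0.115, and the lowest of all was cluster 13 with 0.0872 and 0.119 from shallow cells. None of the 14 pairs of neighbors in the order was apart in both libraries. TAGLN was called higher in cluster 8 (log2 fold change 0.56, SE 0.098, edgeR adjusted p = 0.00624) and cluster 9 (0.38, SE 0.081, edgeR adjusted p = 0.00886) and lower in clusters 7, 10 and 13. The call in cluster 13 (-1.10, edgeR adjusted p = 0.0437) was lost in 6 alternatives and that in cluster 10 (-0.62) without TMM scaling (edgeR adjusted p = 0.0583). In cluster 7 the fitted value was -0.80, while the plain ratios of UMI shares were -0.19 and -0.14.

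The 2 transgelins therefore had different shares of the family. Counted as UMIs, TAGLN made up 2.39% ± 0.0909 of TAGLN and TAGLN2 together over all cells. In cluster 3 the share was 9.72% in replicate 1 and 8.76% in replicate 2, and in cluster 12 it was 16.4% and 16.5%. The lowest share was 1.69% ± 0.357 in cluster 13, and the highest of the other 13 clusters was 3.09% ± 0.345 in cluster 7. Since TAGLN itself was at 0.179 ± 0.00292 in cluster 3 and 0.148 ± 0.0121 in cluster 12, the higher share went with less TAGLN2 and not with more TAGLN.

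**Figure D2:**
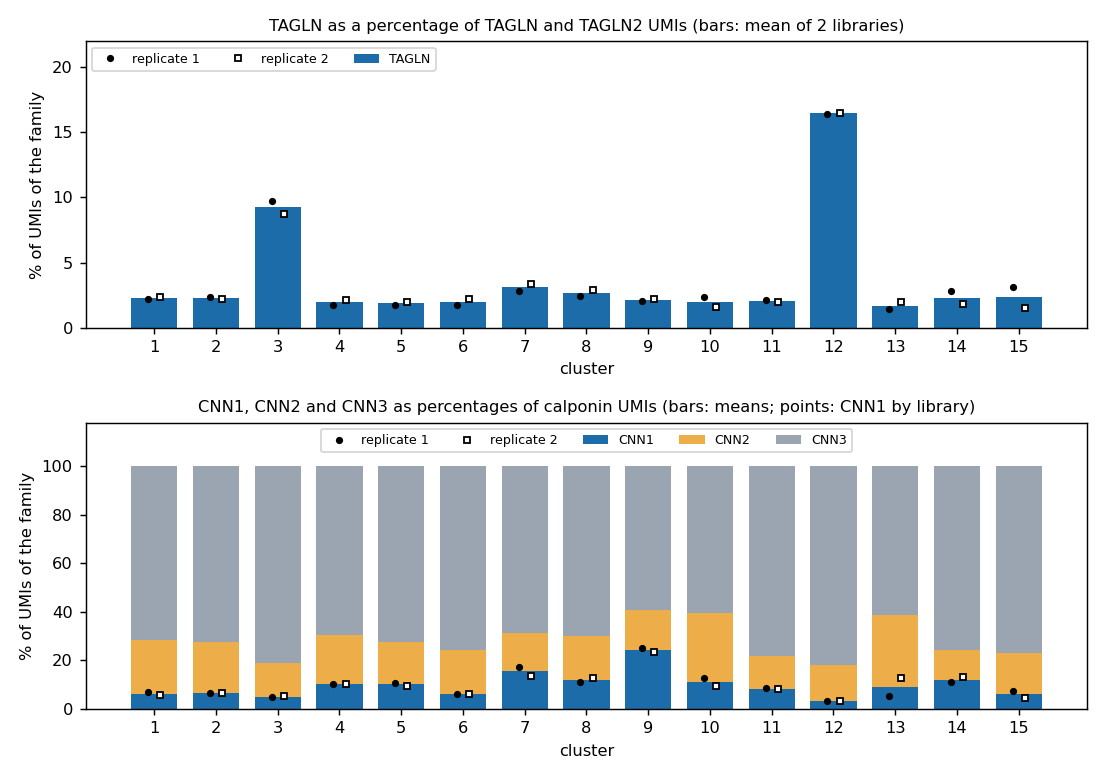
Above, TAGLN as a percentage of TAGLN and TAGLN2 UMIs, and below, CNN1, CNN2 and CNN3 as percentages of all calponin UMIs, in the 15 clusters (horizontal axis). Bars are means of the 2 libraries and points give the first gene in each library. TAGLN reached 9.24% in cluster 3 and 16.5% in cluster 12, and CNN1 reached 24.4% in cluster 9.

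CNN1, the smooth muscle calponin that slows myosin on actin, stood out in 1 cluster. In cluster 9, which with cluster 7 had the most of the fibro-adipogenic mark PDGFRA (1.58 ± 0.0744 and 1.48 ± 0.362), its level was 0.799 in replicate 1 and 0.831 in replicate 2. Cluster 8 followed with 0.436 and 0.526, cluster 7 had 0.502 and 0.336, and clusters 4 and 5 had 0.387 ± 0.0193 and 0.372 ± 0.0191. Clusters 2, 1 and 6 were at 0.188, 0.183 and 0.174, cluster 3 was at 0.105 and 0.123, and cluster 12 was lowest with 0.0715 and 0.0815. The libraries of cluster 9 lay above those of every other cluster, and the means of clusters 9 and 12 had a ratio of 10.7.

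In cluster 7 the direction turned with the scaling, at -0.19 in the fit (edgeR adjusted p = 0.379) and 0.77 and 0.15 as plain ratios in the libraries. Against all other cells CNN1 was called higher in clusters 4, 5, 8 and 9 and lower in clusters 1, 2, 3, 6 and 12. Clusters 9 and 8 had log2 fold changes of 1.69 (SE 0.052, edgeR adjusted p = 4.06e-06) and 0.79 (SE 0.084, edgeR adjusted p = 0.00103). Clusters 3 and 12 had -1.38 (SE 0.069, edgeR adjusted p = 4.13e-05) and -1.84 (SE 0.092, edgeR adjusted p = 1.62e-05). As a share of calponin UMIs, CNN1 had 24.4% ± 1.18 in cluster 9, 11.9% ± 1.34 in cluster 8 and 3.20% ± 0.00249 in cluster 12.

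CNN1 was found in few cells once depth was made equal. With 2000 UMIs per cell its share of cells was 13.3% and 10.9% in replicates 1 and 2 of cluster 9, and 0.635% and 0.321% in cluster 12. With no thinning the shares over both libraries were 56.5% and 9.73%, at median depths of 23011 and 19113 UMIs. The share in cluster 12, 3 cells at 2000 UMIs, was the lowest, and whether it came from free RNA was not tested. At 5000 UMIs per cell, 11 of 1080 cells of cluster 9 held 13.5% of its CNN1 UMIs, the variance over the mean was 2.29 and 1.84 in the libraries, and the highest cell had 10 UMIs. TAGLN at the same depth had 1.28 and 1.11, and SRF had 0.990 and 0.886, so the unevenness of CNN1 in cluster 9 was not shared by every member.

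In cluster 9, CNN1 went with ACTG2, the actin of visceral smooth muscle. At 2000 UMIs per cell, ACTG2 was found in 21.2% of 132 cells with CNN1 (95% exact binomial interval 14.6% to 29.2%, counting error only) and in 6.86% of 948 cells without it (5.33% to 8.66%). By library these were 12.8% and 33.3% against 5.31% and 8.64%. ACTA2 was found in 70.5% and 64.8% of cells with CNN1 against 54.3% and 57.3% without it, and CNN1 in 18.6% of 59 cells with TAGLN against 11.9% of 1021 cells without it. CNN1 itself was found in 12.3% of cells with PDGFRA and 12.2% without it at 2000 UMIs, and at 5000 UMIs in 22.2% and 24.9% by library with PDGFRA against 30.7% and 27.7% without it. ACTG2 itself was highest in cluster 9 at 0.535 ± 0.0868. The differences in ACTA2 with CNN1 and in CNN1 with TAGLN were not particular to cluster 9. In cluster 4, ACTA2 was found in 82.4% of cells with CNN1 and 68.7% without it. CNN1 was found there in 16% of cells with TAGLN and 6.32% without it, but less often with TAGLN in clusters 11 and 12. For CNN1 with and without TAGLN in cluster 9, the intervals overlapped (9.69% to 30.9% and 9.93% to 14%).

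CNN2, a calponin of many non-muscle cells, had its highest levels in clusters 13 and 10. These were 0.715 and 0.901 in cluster 13 and 0.686 and 0.861 in cluster 10, against 0.277 and 0.344 in cluster 3 and 0.301 and 0.406 in cluster 12, the lowest deeper clusters. No neighbors in the order were apart in both libraries. CNN2 was higher in replicate 2 in 14 of 15 clusters, with a log2 ratio of 0.33 over all cells, against limits of -0.11 and 0.28 that leave 10% of genes on each side. Against all other cells it was called lower in clusters 3 (-0.87, SE 0.130, edgeR adjusted p = 0.00293), 7 and 12 (-0.56, edgeR adjusted p = 0.0231) and higher in cluster 8 (0.41, edgeR adjusted p = 0.0476), where the call was lost in 4 alternatives. With libraries as blocks, CNN2 was called in 12 of 15 clusters in place of 4. It was then also higher in clusters 1 (0.33), 2 (0.10), 4 (0.46), 5 (0.22) and 10 (0.32) and lower in clusters 6 (-0.13), 9 (-0.13) and 11 (-0.34), with edgeR adjusted p from 4.79e-36 to 0.0354. Equal weights for the other clusters also called it in cluster 10 (0.44, edgeR adjusted p = 0.0303).

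CNN3, the acidic calponin found in muscle precursors and many other cells, was the most even. Its level ran from 2.86 and 2.79 in cluster 8 to 1.52 and 1.74 in cluster 10, a ratio of means of 1.73, and 0 of 14 pairs of neighbors were apart. The calls were higher in clusters 4, 5, 8 and 11, by 0.25 to 0.40 on the log2 scale, and lower in clusters 3, 7, 9, 10 and 13. The calls in clusters 3 (-0.20) and 9 (-0.23) were lost with the other clusters weighted equally (edgeR adjusted p = 0.232 and 0.202).

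SRF, the transcription factor, had its own order of clusters. Its highest levels were in cluster 7 with 0.647 and 0.541, cluster 13 with 0.681 and 0.379 and cluster 10 with 0.486 and 0.497. Clusters 12 and 3 had 0.389 and 0.337, and 0.311 and 0.292. The lowest deeper clusters were cluster 5 with 0.215 and 0.180 and cluster 8 with 0.188 and 0.206. CNN1 and CNN3 were called higher in both of these clusters, while clusters 13 and 10 were the highest for CNN2 as well. SRF was called higher in clusters 10 (0.77, SE 0.076, edgeR adjusted p = 3.47e-04), 12 (0.61, SE 0.090, edgeR adjusted p = 0.00162), 3 (0.30, edgeR adjusted p = 0.00914), 7 and 13. It was called lower in clusters 5 (-0.46), 8 (-0.45, SE 0.069, edgeR adjusted p = 0.00399) and 11 (-0.28). The call in cluster 7 (0.47) was lost without cells under 2000 UMIs (edgeR adjusted p = 0.303) and in reclustered cells (0.0795), and that in cluster 3 with equal weights (edgeR adjusted p = 0.0789). Over the 15 clusters the Pearson correlation of log2 levels was -0.734 between SRF and CNN3, -0.683 with TAGLN, -0.339 with TAGLN2, -0.202 with CNN1 and 0.0212 with CNN2, as a description of points that share libraries and depth. Among the actin-binding members it ran from -0.0993 between TAGLN and CNN2 to 0.762 between TAGLN and CNN3.

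Counted by cluster, the calls of the members were read against those of all genes tested there, in percent higher and percent lower. Cluster 8 had 5 members higher and 1 lower (22.5% and 23.5% of all genes), with both transgelins and all 3 calponins among those higher. Cluster 9 had 3 higher and 2 lower (25.3% and 27.7%), cluster 12 had 3 and 3 (24.8% and 29.5%), and cluster 3 had 2 and 4 (24.5% and 25.4%). In cluster 12 the members called higher were SRF, MYH11 and MCAM, and those lower were TAGLN2, CNN1 and CNN2. Clusters 4 and 5 had 3 higher each, TAGLN2, CNN1 and CNN3 (16.3% and 12%), with 0 and 1 lower (15.3% and 12%), and cluster 11 had 2 and 1 (12.8% and 13.7%). Clusters 1, 2 and 6 had CNN1 lower (18.8%, 16.8% and 9.48%) and no member higher (14.6%, 15% and 10.6%). Clusters 7 and 10 had SRF as the member called higher (18.3% and 16.7%), with 4 and 3 lower (26.4% and 21.9%), and cluster 13 likewise had SRF higher and 3 lower (5.98% and 11.3%). Cluster 14 had TAGLN2 higher (3.73%) and no member lower (4.07%). In cluster 15, the shallowest, edgeR called none of the 8 tested, also at an unadjusted p under 0.05, and DESeq2 called none of the 6 to which it gave an adjusted p, where 0.039% and 0.234% of all genes were called higher and lower.

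Over the 6 genes with at least 1000 UMIs, 19 of 84 pairs of neighbors in the order (22.6%) had library values that did not overlap, and 9 of these belonged to TAGLN2 and 7 to SRF. For all 9067 genes of that abundance the share of pairs was 30.3%, a larger share than among the members.

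The study placed clusters 8, 1, 3 and 12 in this order on 1 path of muscle differentiation, and the plot of levels along it sets the members beside each other. From cluster 8 to cluster 12, TAGLN2 stood at 10.2, 7.88, 1.76 and 0.749, CNN1 at 0.481, 0.183, 0.114 and 0.0765, and TAGLN at 0.278, 0.184, 0.179 and 0.148. CNN2 stood at 0.734, 0.676, 0.310 and 0.353, and CNN3 at 2.82, 2.14, 1.83 and 1.96. SRF took the other direction, with 0.197, 0.240, 0.302 and 0.363. In words, TAGLN2 and CNN1 were lower at each step toward the MYOG-high end. CNN2 and CNN3 were lower up to cluster 3 and level or slightly higher in the last step. TAGLN was lower mainly between clusters 8 and 1, a step that was not tested, and was called in neither later step. The transcription factor was higher toward that end.

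**Figure D3:**
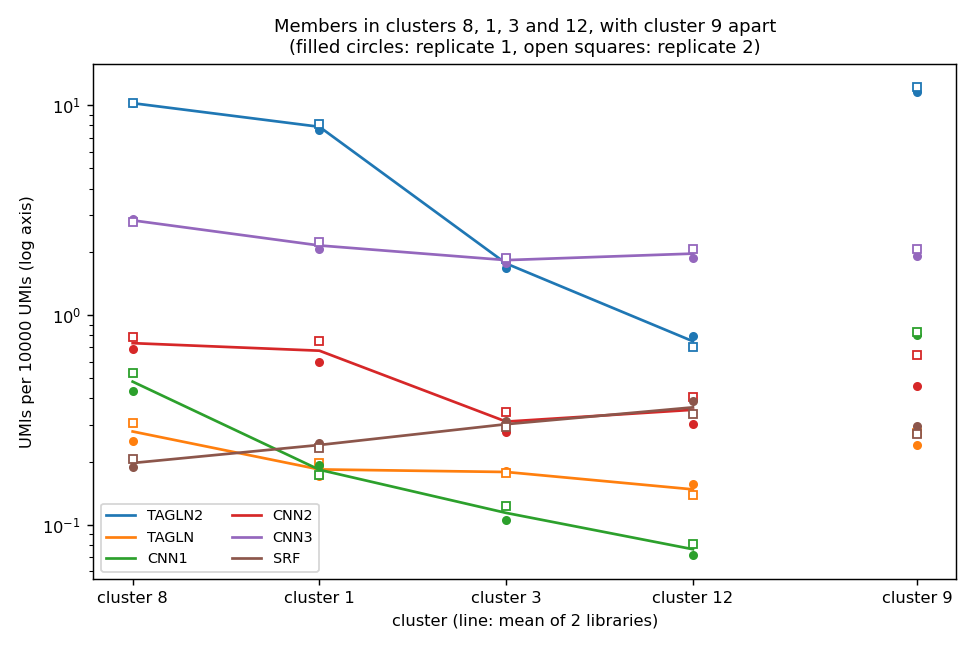
Levels (UMIs per 10000 UMIs, log axis) of the 6 abundant genes in clusters 8, 1, 3 and 12 in the order given by the study, and in cluster 9 apart; filled circles are replicate 1, open squares replicate 2 and lines join means. TAGLN2 ran from 10.2 to 0.749, SRF from 0.197 to 0.363, and in cluster 9 CNN1 was at 0.815.

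Cluster 3 was then compared with cluster 1, which asks how the members differ between MYOG-high cells and MYF5-expressing myoblasts. Of 7 members tested, 4 were called lower and 1 higher, where 19.1% and 21.1% of all 11362 genes were. TAGLN2 was 4.37-fold lower in cluster 3 (log2 fold change -2.13, SE 0.055, edgeR adjusted p = 2.96e-06), and -3.0 in clusters found again without the listed genes. CNN2 had a log2 fold change of -1.09 (SE 0.130, edgeR adjusted p = 6.78e-04), CNN1 of -0.65 (SE 0.10, edgeR adjusted p = 0.00265) and CNN3 of -0.20 (SE 0.051, edgeR adjusted p = 0.0193), the last of which was -0.02 (edgeR adjusted p = 0.851) in the reclustered cells. SRF was higher by 0.37 (SE 0.075, edgeR adjusted p = 0.00735). TAGLN did not differ beyond its error, at 0.171 and 0.197 in cluster 1 and 0.181 and 0.176 in cluster 3. MYH11 had 0.38 (SE 0.440, edgeR adjusted p = 0.535), and MCAM and RGS5 were not tested for lack of counts.

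Cluster 12 against cluster 3 sets cells with the most MYOG beside cells with less of it. Of 8 members tested, 1 was called lower and 2 higher, where 15.6% and 18.2% of all 10811 genes were. TAGLN2 was 2.19-fold lower in cluster 12 (log2 fold change -1.13, SE 0.083, edgeR adjusted p = 3.98e-05), with 0.795 and 0.703 against 1.68 and 1.84. SRF was higher by 0.36 (SE 0.10, edgeR adjusted p = 0.0260) and CNN3 by 0.20 (SE 0.059, edgeR adjusted p = 0.0338), but without TMM scaling neither was called (edgeR adjusted p = 0.0608 and 0.230). That scaling sets the balance of calls, with 1963 genes higher and 1687 lower as reported and 1552 higher and 2527 lower without it. CNN1 was at -0.48 (SE 0.160, edgeR adjusted p = 0.0539), and it was called in 5 alternatives, the library block among them (edgeR adjusted p = 0.0153). CNN2 was at 0.29 (edgeR adjusted p = 0.175) and was called with the block (0.28, edgeR adjusted p = 0.00747). MYH11 at 0.69 and MCAM at 0.70 were not called.

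Cluster 9 against the 7 clusters that the study called myogenic (1, 2, 3, 4, 5, 8 and 12) compares PDGFRA-high cells with cells of the muscle lineage, from precursors to the MYOG-high clusters 3 and 12, which were the lowest in TAGLN2 and CNN1. Of 8 members tested, 3 were called higher and 2 lower, where 28.9% and 27.6% of all 12941 genes were. CNN1 was 3.21-fold higher in cluster 9 (log2 fold change 1.68, SE 0.050, edgeR adjusted p = 1.42e-05), TAGLN2 1.56-fold (0.64, SE 0.040, edgeR adjusted p = 1.29e-04) and TAGLN 1.28-fold (0.36, SE 0.083, edgeR adjusted p = 0.0145). CNN3 was lower by 0.23 (log2 fold change -0.23, SE 0.049, edgeR adjusted p = 0.0116). MCAM was at -1.85 (edgeR adjusted p = 0.0341) on 3 UMIs in cluster 9, and the call was lost with DESeq2 (adjusted p = 0.190). SRF at 0.08 and CNN2 at -0.14 were not called, the latter being called with the block (-0.15, edgeR adjusted p = 0.0171). The 3 comparisons share clusters, so their values are not independent of each other. Beside them, 14.4% of the cells of cluster 9 scored as doublets, and without such cells its CNN1 level was 0.875.

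**Figure D4:**
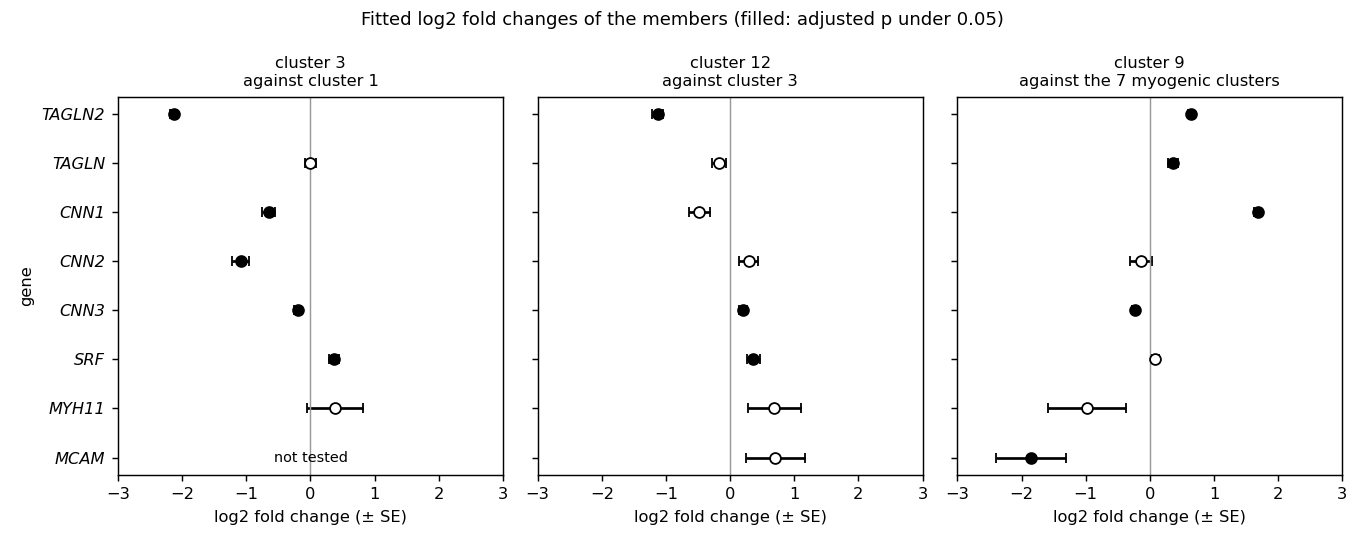
Fitted log2 fold changes with standard errors (horizontal axis) of 8 members in 3 comparisons of clusters, filled where the edgeR adjusted p was under 0.05. TAGLN2 was at -2.13, -1.13 and 0.64 in the panels from left to right, CNN1 at -0.65, -0.48 and 1.68, and SRF at 0.37, 0.36 and 0.08.

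Other genes were counted as background to the members. An actin list held genes of the actin cytoskeleton together with targets and partners of SRF, and a smooth muscle list held genes of that tissue. Of 40 tested genes of the actin list, 11 were higher and 17 lower in cluster 12 than in cluster 3 (18.2% and 15.6% of all genes). Their median log2 fold change was -0.19 against -0.02 for all genes. Among the largest called differences there were those of the skeletal actin ACTA1 (5.80) and the adaptor protein SORBS2 (2.41). In cluster 3 against cluster 1, 9 were higher and 14 lower (21.1% and 19.1% of all genes; median -0.01 against 0.00), with the myosin light chain kinase MYLK (-2.0) and ACTA1 (1.90) among the largest differences. In cluster 9 against the myogenic clusters, 16 were higher and 15 lower (28.9% and 27.6% of all genes; median -0.06 against -0.01), with ACTA1 (-3.88) and the cardiac actin ACTC1 (-3.60) among the largest differences.

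The smooth muscle genes beyond the members were counted in the same way, and some of them, such as MYLK and ACTG2, stand in both lists. In cluster 12 against cluster 3, 7 of 11 tested were higher and the others were not called (18.2% and 15.6% of all genes higher and lower), with a median of 0.44, and the largest were the calcium store protein CASQ2 (6.45), SYNPO2 (1.71) and the potassium channel subunit KCNMB1 (1.34). CASQ2, SYNPO2, DES and ACTA2 are also made by skeletal or cardiac muscle. In cluster 3 against cluster 1, 3 of 11 were higher and 5 lower (21.1% and 19.1% of all genes, median -0.30), led by MYLK (-2.0), DES (1.10) and SYNPO2 (0.85). In cluster 9 against the myogenic clusters, 2 of 14 were higher and 9 lower (28.9% and 27.6% of all genes, median -0.82), led by KCNMB1 (-2.85), DES (-2.62) and CASQ2 (-2.62), while ACTG2 was higher (2.14, SE 0.110, edgeR adjusted p = 6.05e-05). ITGA8 was the other gene called higher (2.55, SE 0.25, edgeR adjusted p = 6.29e-04). DES, CASQ2 and SYNPO2, among those lower, were higher in cluster 12 than in all other cells (2.75, 6.93 and 2.96). Cluster 12 is part of the myogenic side. CNN1, ACTG2 and ITGA8 were thus higher in cluster 9 while most listed genes were lower, a count that depends in part on genes raised in cluster 12.

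The 3 sparse members need single cells rather than averages. MYH11, the smooth muscle myosin heavy chain, was found in 14 clusters, and 174 of its 180 cells had 1 UMI. Its level was 0.0146 and 0.0160 in replicates 1 and 2 of cluster 12 (19 UMIs in 18 cells) against 0.00638 ± 0.000102 in all other cells, and it was called higher there (log2 fold change 1.44, SE 0.300, edgeR adjusted p = 0.00758). With 0 UMIs in cluster 15, up to 3 counts would allow a level of 0.315 in replicate 1, so that nothing can be said of that cluster. In the RefSeq annotation of another assembly (ARS-UCD2.0) MYH11 overlaps NDE1, and reads of both genes cannot be told apart here if strand was not used in counting. Among the abundant members, TAGLN2 overlaps CFAP45 and CNN3 overlaps SLC44A3 in that annotation, with the same limit.

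MCAM, the adhesion molecule CD146 of pericytes and endothelium, was found in 13 clusters. It had 7 UMIs in each library in cluster 12 (0.0114 and 0.0112) against 0.00325 ± 0.000239 in all other cells, and was called higher there (log2 fold change 1.97, SE 0.370, edgeR adjusted p = 0.00472). It was also called higher in cluster 3 (1.40, SE 0.340, edgeR adjusted p = 0.0161), though not with DESeq2 (adjusted p = 0.0587). In cluster 9, with 2 and 1 UMIs, it was called lower (-1.78, edgeR adjusted p = 0.0306), and that call was lost with DESeq2 (adjusted p = 0.212) and with equal weights. Both MYH11 and MCAM were thus called higher in cluster 12, with 18 and 14 positive cells of 627. Such counts of 1 UMI cannot be told apart from free RNA in single cells.

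RGS5, the regulator of G protein signaling that is among the strongest pericyte marks, had 5 UMIs in 3 cells of cluster 9, 2 UMIs in 1 cell of cluster 14 and 1 UMI in 1 cell of cluster 1. No cell had RGS5 together with MYH11 or MCAM, and 3 cells had both MYH11 and MCAM. Read as averages, these numbers are too few to test.

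Cell by cell they were less scattered. Among the 17198 cells with at least 2000 UMIs, 4 of the 5 cells with RGS5 ranked 4, 5, 11 and 14 by the share of their UMIs that came from ACTA2. These cells had 80, 41, 139 and 31 ACTA2 UMIs, or 79.0, 74.4, 55.1 and 52.8 per 10000, where the highest cluster level was 9.12. All 4 had CD248 (5, 4, 25 and 1 UMIs), which was found in 11.7% of all cells without thinning. However, 3 of them lay in cluster 9, which had the highest summed level of pericyte genes among the deeper clusters (2.68 ± 0.101). The share of cells with CD248 in that cluster is not given here. Of other pericyte genes, CSPG4 (4 UMIs) and PDGFRB (2 UMIs) were found in 1 of these 4 cells, NOTCH3 (1 UMI) in another and ABCC9 in 0. All 4 had COL1A1 (8, 3, 35 and 3 UMIs), and 0 had a UMI of MYOD1, MYF5, MYOG or PDGFRA. The remaining RGS5 cell, in cluster 1, had 13 ACTA2 UMIs and 4 of MYOD1.

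The cell that ranked 1 by ACTA2 was also the cell with the most MYH11. It lay in cluster 9 of replicate 1 and had 13244 UMIs, with 7 UMIs of MYH11, 237 of ACTA2, 15 of CNN1, 15 of TAGLN2, 6 of ACTG2, 5 of TAGLN, 28 of DES, 5 of CD248, 1 of MCAM and 1 of the 2 MYOCD UMIs in the data. It had 0 UMIs of MYOD1, MYF5, MYOG, PAX7 and PDGFRA. LMOD1, SRF, CNN2, PDGFRB, CSPG4, NOTCH3 and ABCC9 were at 0 in that cell too, and it had 15 UMIs of COL1A1. Only 1 further cell, in cluster 2, had at least 3 MYH11 UMIs, and it had 11 UMIs of MYOD1 and 14 of ACTA2. None of the 9 cells plotted by ACTA2 was scored as a doublet. Without the MYH11 cell the level of MYH11 in replicate 1 of cluster 9 was 0.00141 in place of 0.00634, and that of CNN1 was 0.790 in place of 0.799, so the CNN1 level of cluster 9 did not rest on it. These cells were picked out after their values were seen, and no cell type is assigned to them.

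**Figure D5:**
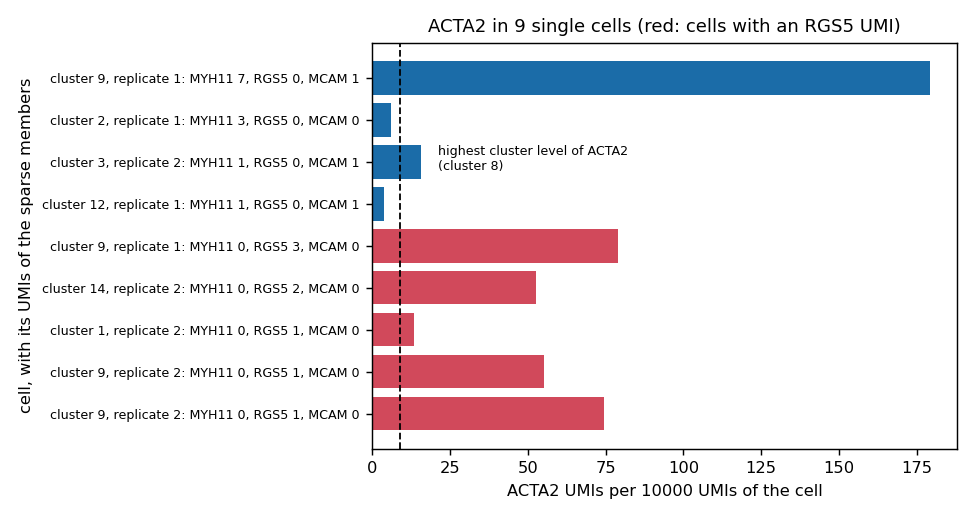
ACTA2 UMIs per 10000 UMIs (horizontal axis from 0) in the 9 cells with at least 3 MYH11 UMIs, an RGS5 UMI, or both MYH11 and MCAM, each row naming the cluster, library and UMIs of the sparse members; red bars are cells with RGS5 and the dashed line is the highest cluster level, 9.12. The MYH11 cell reached 179, and 4 of 5 RGS5 cells lay between 52.8 and 79.0.

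The genes whose levels ran most like each member over the 15 clusters were found as a description, among genes with at least 1000 UMIs. For TAGLN2 they were IRF2 (Pearson correlation 0.95), CNIH4 (0.941) and TMOD3 (0.935), and for TAGLN they were UCHL1 (0.939), TWF2 (0.920) and ANXA1 (0.917). TMOD3 caps actin filaments and TWF2 binds actin monomers. For CNN1 they were NPC2 (0.946), TKT (0.942) and VEGFA (0.935), for CNN2 CGGBP1 (0.898), BEND5 (0.887) and JDP2 (0.871), and for CNN3 CIB1 (0.919), PRPSAP1 (0.909) and LGALS3 (0.886). SRF was followed most closely by AFG3L2 (0.975), SEC24C (0.973) and SMG5 (0.956). The points share libraries and depth, and the 4 shallow clusters weigh as much as the others, so the order of these genes depends on them.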

How the data were processed

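The deposited counts are whole numbers of UMIs per gene and cell, which the authors made with Cell Ranger 3.0.2 on ARS-UCD1.2 from 10x Genomics 3′ libraries (version 3 chemistry), thinning reads to equal depth per cell between the libraries. The deposited cluster averages are a score, the mean UMI count per cell scaled to a common total by the authors, and the same table holds their log2 fold changes and p-values per cluster, which were not used. The number of columns of per-sample values left unused is 0. Which cell lay in which cluster was worked out from the averages, and the resulting sums differed from them for 0 of 252240 pairs of gene and cluster. The library of a cell was read from its barcode's ending. The genes and gene lists were chosen with earlier results of these data known.

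UMIs were summed per library and cluster and compared, 2 sums against 2, with edgeR 4.0.16 (TMM, filterByExpr, quasi-likelihood test) in R 4.3.3, with Benjamini-Hochberg adjustment over all genes tested and a threshold of 0.05. On simulated counts with 200 genes changed 3-fold, 75.0% were recovered for cluster 12 against all other cells (13215 genes) and 88.0% for cluster 12 against 3 (10766 genes). For cluster 3 against 1 (11331 genes) 91.0% were recovered, and for cluster 9 against the myogenic clusters (12843 genes) 88.0%. In the same order, 0.662%, 4.86%, 2.67% and 5.38% of the calls were false. The simulated sums had 1 fixed dispersion and no shared difference between libraries, so these rates may not hold for the real sums. A fitted fold change follows TMM scaling and can differ from the plain ratio of levels. The library pairs the sums of a comparison, and log2 ratios between libraries correlated across genes by 0.167 to 0.669. The blocked fit is an alternative.

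Shares of cells used cells thinned to 2000 UMIs, with exact binomial intervals at 95%, and for a count of 0 the limit was 3 counts. Intervals and limits cover counting error only. Scrublet (scanpy 1.11.5) was run at an expected doublet rate of 8%. Its automatic thresholds called 0 and 6 cells, so, after this was seen, the score was cut at the expected rate, which marked 753 (7.58%) and 642 (7.01%) cells. They were kept in the main values. Named genes were the 9 members, the 3 called genes of each list with the largest log2 fold change in a comparison, the 3 genes most alike to a member by log2(level + 0.01), and marker genes, and 1 gene that this rule names is not reported here. Alternatives were no TMM, no low-count filter, DESeq2 1.42.0, the library block, leaving out a library, doublets or cells under 2000 UMIs, Leiden clustering (leidenalg 0.10.2) and best-fitting profiles without the listed genes, equal weights for the other clusters, and 1 fit of all clusters.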

Additional observations from a re-analysis of the deposited data

How the results depend on the processing

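The fold changes tallied here were those of members tested in clusters 3, 8, 9, 10 and 12 and in the direct comparisons. Those of the abundant members in the clusters of their highest and lowest levels were added. Most fold changes in other clusters were left out, CNN1 in cluster 7 among them. Of 711 values of these 67 fold changes under alternatives, 648 kept their direction and, where they had a p-value, their side of the threshold. A call was lost in 30 and gained in 20, 10 changed sign and 3 moved without a test. Values with a library left out had no p-value and were judged by direction alone. The 10 concern small values that had not been called. With the other clusters weighted equally, TAGLN in cluster 3 was at 0.08, CNN2 in cluster 9 at 0.04, SRF in cluster 9 at -0.06, CNN1 in cluster 10 at 0.11 and CNN3 in cluster 12 at 0.11. SRF in cluster 9 was at -0.01 without the filter, CNN3 in cluster 12 at 0.02 with DESeq2, MYH11 in cluster 10 at -0.01 with best-fitting profiles, and TAGLN in cluster 3 against 1 at 0.00 with the block and 0.03 without doublets. The cause was not tested.

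In cluster 12 against 3, members called higher numbered 0 without TMM or with DESeq2. They numbered 1 without the filter, with best-fitting profiles or in 1 fit of all clusters. Those called lower numbered 2 without TMM, without the filter, with the block, without doublets and with best-fitting profiles. Of all 10811 genes, 1552 were higher and 2527 lower without TMM, and 1423 and 845 with DESeq2, against 1963 and 1687 as reported. In cluster 3 against 1, 2 were higher without the filter, in Leiden clusters and in 1 fit of all clusters. In cluster 9 against the myogenic clusters, 1 was lower with DESeq2 and in 1 fit of all clusters. With DESeq2, 2926 of all 12941 genes were lower there, against 3570 as reported. With the replicate block, which follows the pairing of sums by library, 34 pairs of member and cluster were called higher and 34 lower, 3 higher and 2 lower in cluster 12 against 3, 1 and 4 in cluster 3 against 1, and 3 and 3 in cluster 9 against the myogenic clusters. The shares of all genes called with the block and the alternatives other than no TMM and DESeq2 were not counted. Their numbers of members called therefore have no background beside them.

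The level of TAGLN in cluster 13 was 0.0422 without cells under 2000 UMIs, that of TAGLN2 in cluster 12 was 0.535 without doublets, and that of CNN1 in cluster 9 was 0.875 without doublets. At 5000 UMIs per cell and without thinning, mean shares of cells over the libraries were 20.2% and 51.2% for TAGLN2 in cluster 12, 99.2% and 100% in cluster 8, 26.3% and 56.6% for CNN1 in cluster 9, and 3.75% and 9.73% in cluster 12. Leaving out a library moved TAGLN2 between 11.5 and 12.2 in cluster 9 and CNN1 between 0.799 and 0.831. The Leiden clusters matched 10 of 15 deposited clusters and gave no value for cluster 12. Without TMM the median of all genes in cluster 7 was 0.52 in place of -0.12, with 4768 genes higher and 1625 lower in place of 2382 and 3443, so directions there follow the scaling. In clusters 12 and 3 it was -0.27 and -0.14 in place of -0.09 and 0.00, with 2452 genes higher and 5209 lower in place of 3273 and 3906 in cluster 12, and 2142 and 4474 in place of 3205 and 3318 in cluster 3.

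Beside CNN2, the block added calls of TAGLN2 in clusters 1 (0.02), 2 (-0.11) and 6 (0.07), TAGLN in clusters 2 (-0.21), 4 (0.16), 6 (-0.26) and 12 (-0.27), MYH11 in clusters 3 (0.83) and 4 (-1.06), SRF in cluster 1 (-0.13) and MCAM in cluster 8 (-2.6), with edgeR adjusted p from 3.88e-07 to 0.0466, and removed that of TAGLN in cluster 13 (edgeR adjusted p = 0.0546). In the direct comparisons it added CNN1 and CNN2 in cluster 12 against 3 and CNN2 in cluster 9 against the myogenic clusters, and it changed no other call.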
